A study of Mus musculus with 18 samples.

Results

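Nuclear receptors are transcription factors that bind DNA directly, and many of them are switched by a small lipid-soluble ligand. The genes described here are 37 receptors of the family outside the ERR receptors, the Nr4a receptors and the receptors of the circadian clock: 6 retinoid receptors, 3 PPARs, 3 receptors for thyroid hormone and vitamin D, 5 receptors for sterols, bile acids and foreign compounds, 9 orphan receptors of the NR2 and HNF4 group, 5 steroid hormone receptors, and 6 of the NR5, NR6 and NR0 groups with Rorb. They were taken by symbol from a list drawn up with earlier results of these data known, and each was read from the probe set that names that gene alone and has the highest mean over 18 arrays. Of the 12393 genes measured in this way, 33 were receptors of the list, and Nr1h2, Nr2e1, Nr2e3 and Nr3c2 had no probe set that named them alone. In these CD4+ T cell samples 7 receptors gave a signal of log2 4 or more on at least 3 arrays: Rara, Rarg, Rxra, Rxrb, Thra, Nr2c2 and Nr3c1.

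The study asked what ERRα, the orphan receptor encoded by Esrra, does to gene expression in CD4+ T cells, on Affymetrix Mouse Genome 430A arrays. CD4+ cells of mice aged 6 to 8 weeks were obtained by negative selection, either from wild-type (WT) animals or from ERRα knockout (KO, ERRa-/-) animals. The groups, each of 3 arrays described as independent biological replicates, were WT resting, WT stimulated, KO resting, KO stimulated, WT with XCT790 and WT with compound A. Resting cells were taken straight from the animal, and stimulated cells spent 12 h with 10 µg of antibodies to CD3 and CD28. No untreated group was described as cultured without these antibodies. Antibodies and 12 h of culture therefore cannot be told apart in any comparison of stimulated with resting cells. The ERRα inhibitors were XCT790, an inverse agonist, and compound A, known here by its code name, each given at 20 µM. The label of the inhibitor arrays reads as unstimulated, whereas the protocol has them present during stimulation; XCT790 and compound A were therefore set against both WT groups. The labels name no strain, and which part of Esrra the knockout lacks is not given in the sources used here.

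Values are log2 GCRMA signals, on a scale where 1 unit is a 2-fold difference, and the number of arrays limits their precision. Esrra read 0.87 ± 0.11 (SE) lower in KO than in WT cells at rest (4.55 against 5.42, adjusted p = 2.16e-04, limma) and 0.92 ± 0.11 lower after stimulation (4.45 against 5.37, adjusted p = 3.31e-04). Whether its probe set lies in the deleted part is not known. A first 5′ probe set of the bacterial dap control read 3.99 to 6.38 on the 6 untreated WT arrays and 7.45 to 8.51 on the other 12, and the other 5′ one read 3.73 to 6.03 and 7.21 to 8.07. Both 3′ probe sets of dap overlapped between these arrays (10.6 to 11.9 on untreated WT arrays and 10.7 to 11.7 on the others). Group and the split of the 5′ probe sets therefore cannot be told apart in any comparison of KO or inhibitor cells with untreated WT cells. All 9 measured CD4 T cell markers reached log2 4 on every array. The log2 of the summed macrophage markers (16 genes, of which Marco, Fcgr1 and Itgam never reached log2 4) was 12.4 to 14.5 in resting preparations and 6.55 to 7.55 elsewhere. The B cell sum (11 genes, with Pax5 and Ebf1 never at log2 4) was 15.3 to 15.4 at rest and 12.8 to 14.2 elsewhere. At rest every KO array lay above every WT array in the erythroid sum (9 genes, Hba-a1 never at log2 4; 11.8 to 13.6 against 7.32 to 10.4) and in the neutrophil sum (10 genes, Ltf never at log2 4; 11.5 to 13.7 against 8.65 to 10.4). KO resting array 1 had the highest macrophage, erythroid and neutrophil sums of all arrays (14.5, 13.6 and 13.7). In such bulk samples fewer cells of a type and less RNA per cell cannot be told apart.

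Retinoid receptors work in pairs: a retinoic acid receptor (RAR) binds DNA with a retinoid X receptor (RXR), and RXRs are also the partners of the thyroid hormone, vitamin D, liver X and PPAR receptors. Most of these pairs, and the orphan receptor Nr2c2 (TR4), recognise repeats of the half-site AGGTCA, while ERRα binds a single half-site extended at its 5′ end. The glucocorticoid receptor Nr3c1 is different: it waits in the cytosol with HSP90 chaperones until a glucocorticoid binds, and in T cells it is known for restraining activation and for driving thymocyte death.

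The 250 bases before the start were read for 5 of the 7 receptors from RefSeq sequences of GRCm38.p6, which gave 11 windows, since a gene can have several starts and their windows can overlap. Both strands were searched for AGGTCA, for the extended form TNAAGGTCA, which contains AGGTCA, and for the GC box GGGCGG. Of the 11 windows, 2 held AGGTCA, none held TNAAGGTCA (0) and 8 held GGGCGG. The shares over all 32851 windows of that length were 14.0%, 1.14% and 32.7%. The windows below are the one of Nr2c2, shown because it is the receptor that differed in every comparison with WT cells, and those of Rarg and Rxra that hold the half-site; capitals mark AGGTCA or GGGCGG on either strand. The Nr2c2 window lies at chr6:92092183-92092432 on the plus strand, that of Rarg at chr15:102257523-102257772 on the minus strand, and that of Rxra at chr2:27709042-27709291 on the plus strand.
Nr2c2: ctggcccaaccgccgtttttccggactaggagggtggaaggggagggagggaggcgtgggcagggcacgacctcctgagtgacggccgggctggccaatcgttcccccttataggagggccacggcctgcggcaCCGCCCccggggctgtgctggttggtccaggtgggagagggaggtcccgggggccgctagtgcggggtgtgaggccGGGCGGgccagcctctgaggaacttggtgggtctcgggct
Rarg: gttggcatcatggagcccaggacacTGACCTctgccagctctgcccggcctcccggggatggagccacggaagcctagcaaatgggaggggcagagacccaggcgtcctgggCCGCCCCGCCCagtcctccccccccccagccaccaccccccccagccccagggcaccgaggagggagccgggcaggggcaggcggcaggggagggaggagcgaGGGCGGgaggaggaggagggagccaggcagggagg
Rxra: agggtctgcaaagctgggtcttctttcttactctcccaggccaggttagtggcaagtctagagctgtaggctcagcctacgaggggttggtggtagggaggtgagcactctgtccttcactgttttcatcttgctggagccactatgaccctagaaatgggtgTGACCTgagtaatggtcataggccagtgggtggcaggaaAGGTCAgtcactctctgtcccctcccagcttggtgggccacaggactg
The Rarg window holds 1 AGGTCA, which starts 225 bases before the gene's start and lies on the minus strand of the sequence shown. The Rxra window, that of the downstream start, holds 2 copies that begin 87 and 48 bases before the start and face opposite ways. The Nr2c2 window holds 2 GC boxes and no AGGTCA. A match here is a description of letters and not a binding site. Windows of Thra and Nr3c1 were not used here.

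Of the 33 measured receptors, Rarg, Rxrb, Nr2c2 and Nr3c1 reached log2 4 on all 18 arrays, Thra on 13, Rxra on 11 and Rara on 5. Together these 7 were 21.2% of the measured receptors, whereas 55.5% of all genes met the same rule. Just outside it lay Nr2c1 (TR2), the orphan receptor most related to Nr2c2, which reached log2 4 on 2 arrays and ranged from 2.92 to 4.31. Nr2c1 read 2.92, 3.00 and 3.11 on the KO resting arrays and 3.48 to 4.01 on the WT resting arrays. It read 3.61 to 3.83 in WT stimulated, 3.21 to 3.51 in KO stimulated, 3.43 to 4.31 in XCT790 and 3.52 to 3.58 in compound A cells. The gene was not tested, and the resting genotypes also differed in the dap 5′ control and in the erythroid and neutrophil sums. The other 25 receptors never reached log2 4 and lay between 2.00 and 2.60. For 23 of these 25 the lowest and the highest array differed by less than 0.1, so they showed no variation that could be compared. The exceptions were Nr2f6, from 2.30 to 2.60, and Pparg, the adipocyte PPAR, from 2.10 to 2.50.

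By role, 4 of the 6 measured retinoid receptors reached log2 4, with Rarb and Rxrg staying near 2.12 and 2.19. None of the 3 PPARs did, nor any of the 4 measured sterol, bile acid and foreign-compound receptors, among them the liver X receptor Nr1h3 (2.30 to 2.34) and the bile acid receptor Nr1h4. Thra was the single thyroid or vitamin D receptor above the level, as Thrb stayed at 2.27 to 2.31 and the vitamin D receptor Vdr at 2.23 to 2.27. In the orphan group Nr2c2 alone passed, beside Nr2c1, Nr2f1, Nr2f2, Nr2f6, Hnf4a and Hnf4g. Nr3c1 was the single steroid receptor, since the oestrogen receptors Esr1 and Esr2 and the progesterone receptor Pgr lay at 2.15 to 2.22. None of Nr5a1, Nr5a2, Nr6a1, Nr0b1, Nr0b2 and Rorb passed. A signal under log2 4 on these arrays does not show that the receptor is absent, since how well each probe set detects its gene was not tested.

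**Figure D1:**
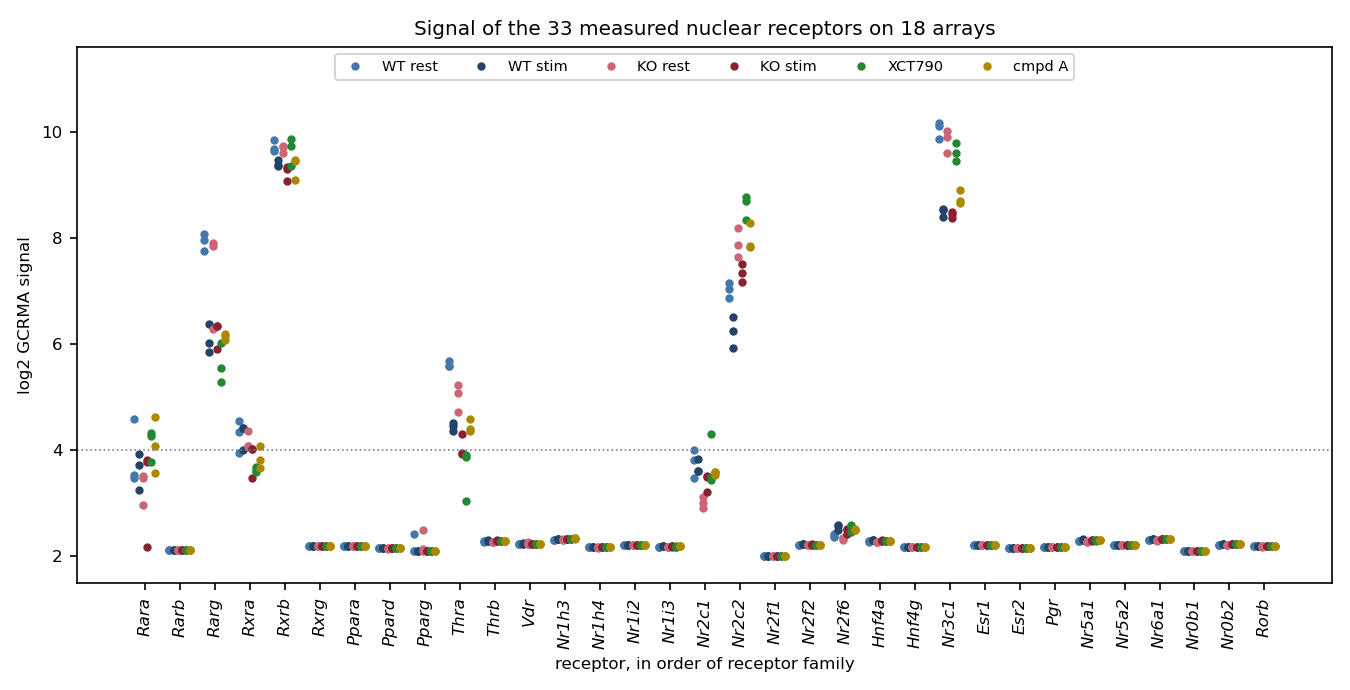
Log2 GCRMA signal (y axis) of the 33 measured receptors (x axis, in order of family) with 1 point per array, coloured by group; the dotted line is log2 4. The 7 tested receptors and Nr2c1 rise above the rest, and the other 25 stay between 2.00 and 2.60.

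Each comparison was fitted over the 6873 genes that reached log2 4 on at least 3 arrays, and a gene was called at an adjusted p under 0.05. With stimulation of WT cells 5 of the 7 receptors fell and none rose (Rarg, Rxrb, Thra, Nr2c2 and Nr3c1), against 38.4% of all tested genes called lower and 75.4% called in either direction by limma; an unadjusted p under 0.05 added no further receptor. The median difference was -0.79 for the 7 receptors and -0.01 for all tested genes. In KO cells the same 5 receptors fell and none rose, with 35.7% of all genes called lower and 73.4% in either direction, and an unadjusted p under 0.05 again added none. Macrophage and B cell marker sums were also lower after stimulation in both genotypes, and their part in the falls of these 5 receptors was not tested. The difference between the genotypes in the response to stimulation was called for 0 of the 7 receptors by limma, and 0 had an unadjusted p under 0.05; over all genes 0.902% were called. At rest KO cells differed from WT cells in 2 receptors, Nr2c2 higher and Thra lower, against 19.0% of all genes called. In the same comparison 7 of 7 tested erythroid markers and 6 of 8 neutrophil markers were called higher (medians 4.16 and 3.05) and 3 of 8 B cell markers lower, and the part of other cells in the receptor values was not tested. After stimulation Nr2c2 alone was called between the genotypes, 1 of 7, against 2.18%.

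XCT790 against stimulated WT cells gave 4 calls among the 7 receptors, with Nr2c2 and Nr3c1 higher and Rxra and Thra lower, where 66.0% of all genes were called, 29.1% higher and 36.9% lower. Compound A against the same cells gave 1 call, Nr2c2 higher, where 33.2% were called, 14.5% higher and 18.7% lower. Between the inhibitors 4 receptors differed (Rxrb, Nr2c2 and Nr3c1 higher and Thra lower with XCT790), where 52.6% of genes were called. Against resting WT cells XCT790 gave 5 calls among 71.9% of all genes, and compound A gave 6 among 69.7%. These comparisons share their WT arrays, so they are not independent of each other.

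**Figure D2:**
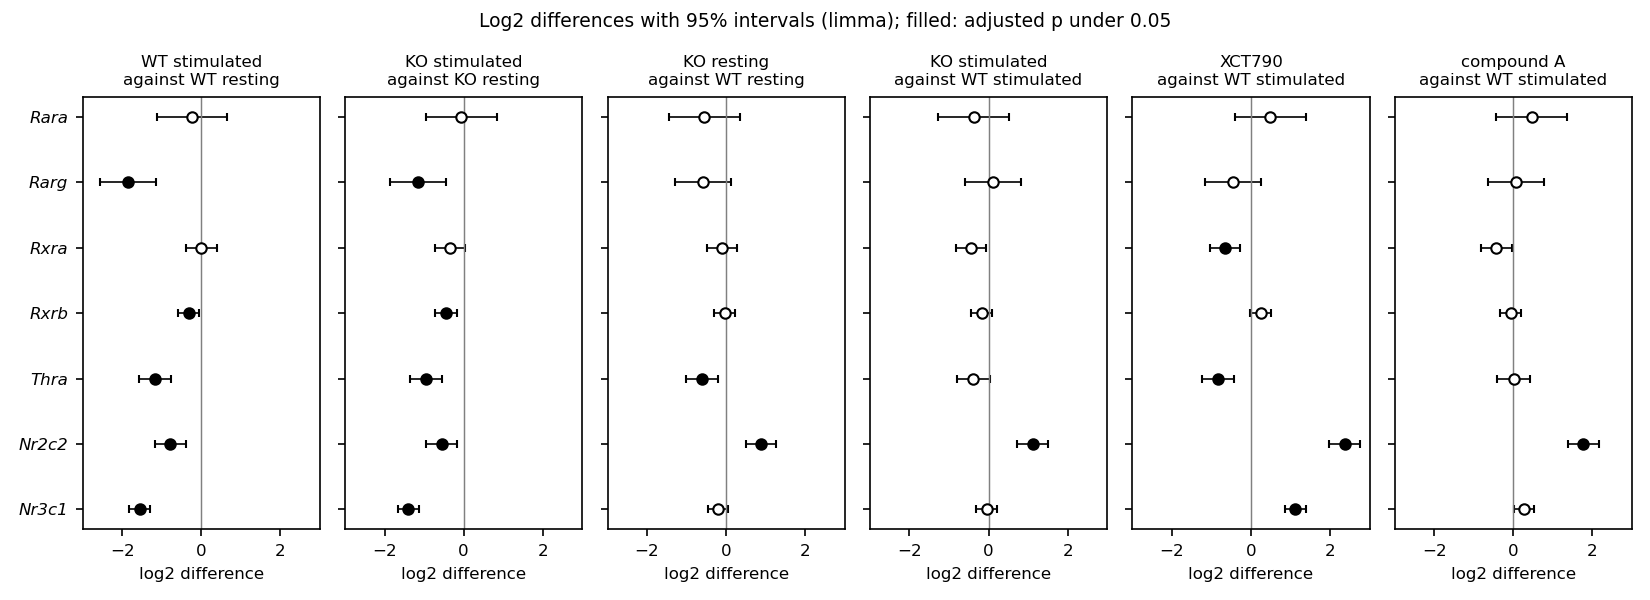
Log2 difference (x axis) of the 7 tested receptors in 6 comparisons, 1 panel each, with 95% intervals from limma; filled circles have an adjusted p under 0.05. Nr2c2 lies right of 0 in all 4 panels of KO or inhibitor cells against WT cells and left of 0 in both stimulation panels.

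Rarg encodes retinoic acid receptor gamma. It read 7.76, 8.07 and 7.96 in WT resting cells and 5.85, 6.02 and 6.37 in WT stimulated cells, so the groups did not overlap. The difference was -1.85 ± 0.33 (SE, as for all differences), a 3.60-fold lower signal after stimulation (adjusted p = 1.35e-04). In KO cells it read 6.29, 7.91 and 7.86 at rest and 5.91, 6.34 and 6.35 after stimulation, a difference of -1.15 ± 0.33 (adjusted p = 0.00585, or 0.0702 with the KO groups fitted alone). Here the groups overlapped through KO resting array 1, the array with the highest macrophage, erythroid and neutrophil marker sums, whose part in the value was not tested. Without that array the KO difference was -1.68 (adjusted p = 3.74e-06), and the KO and WT resting cells differed by -0.05 rather than by -0.58 (adjusted p = 0.916 and 0.222).

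With the inhibitors Rarg lay near its stimulated level. It read 5.55, 6.02 and 5.29 with XCT790 and 6.19, 6.15 and 6.08 with compound A. Both groups lay below every WT resting array, by -2.31 ± 0.33 with XCT790 (adjusted p = 1.81e-05) and by -1.79 ± 0.33 with compound A (adjusted p = 2.21e-04). Against stimulated WT cells the difference of -0.46 with XCT790 was not called (95% interval -1.17 to 0.24, adjusted p = 0.234). That value was called when KO resting array 1 was left out (adjusted p = 0.0317), where the SE was 0.18 in place of 0.33. A second probe set of Rarg stayed under log2 4 on all arrays.

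Rara, retinoic acid receptor alpha, lay around the level of log2 4. It read 3.47, 3.53 and 4.59 in WT resting cells, 3.72, 3.92 and 3.26 in WT stimulated cells, 2.96, 3.51 and 3.47 in KO resting cells and 2.17, 3.78 and 3.81 in KO stimulated cells. With XCT790 it read 4.33, 3.78 and 4.27, and with compound A 3.58, 4.08 and 4.62. The groups overlapped widely apart from the inhibitor groups, which lay above every KO resting array, and no comparison of Rara was called.

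Rxrb, a retinoid X receptor, varied least of the 4 receptors found on all arrays, from 9.08 to 9.86. It read 9.84, 9.64 and 9.68 in WT resting cells and 9.38, 9.47 and 9.36 in WT stimulated cells, with no overlap and a difference of -0.32 ± 0.12 (1.25-fold, adjusted p = 0.0300). In KO cells it went from 9.71, 9.73 and 9.60 to 9.08, 9.29 and 9.33, a difference of -0.45 ± 0.12 (1.36-fold, adjusted p = 0.00477). The WT call was lost without WT resting array 1, WT stimulated array 1 or WT stimulated array 3, and with the arrays shifted to a common median (-0.27, adjusted p = 0.0574). XCT790 cells read 9.37, 9.73 and 9.86 and compound A cells 9.10, 9.46 and 9.44, overlapping groups that differed by 0.32 ± 0.12 (adjusted p = 0.0444). That call was lost when any of 12 arrays was left out, with no filter, and with the compared groups alone. Against stimulated WT cells the difference of 0.25 with XCT790 was not called (adjusted p = 0.0905), but it was with the arrays shifted to a common median (0.30, adjusted p = 0.0431) and without XCT790 array 1 (0.39, adjusted p = 0.00801). Against KO stimulated cells XCT790 cells were higher by 0.42 (adjusted p = 0.00877). Compound A cells lay below every WT resting array, by -0.39 ± 0.12 (adjusted p = 0.0123), and this call was lost without WT resting array 1 or compound A array 1.

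Rxra, another retinoid X receptor, stayed within 3.47 to 4.54. It read 4.34, 4.54 and 3.95 in WT resting cells and 4.01, 4.42 and 4.42 in WT stimulated cells, a difference of 0.01 ± 0.18 (95% interval -0.38 to 0.39). KO cells read 4.37, 4.08 and 4.08 at rest and 3.47, 4.01 and 4.03 after stimulation. The 3 XCT790 arrays, at 3.59, 3.67 and 3.62, lay below every untreated WT array, with a difference of -0.65 ± 0.18 from stimulated WT cells (at least 1.22-fold lower against the level of log2 4, adjusted p = 0.00502). They did not lie below every KO stimulated array, and that difference of -0.21 was not called (adjusted p = 0.328). Compound A cells read 3.66, 4.08 and 3.82 and were called below resting WT cells (-0.42 ± 0.18, adjusted p = 0.0468, lost when any of 11 arrays was left out) and not below stimulated WT cells (-0.43 ± 0.18, adjusted p = 0.0790).

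**Figure D3:**
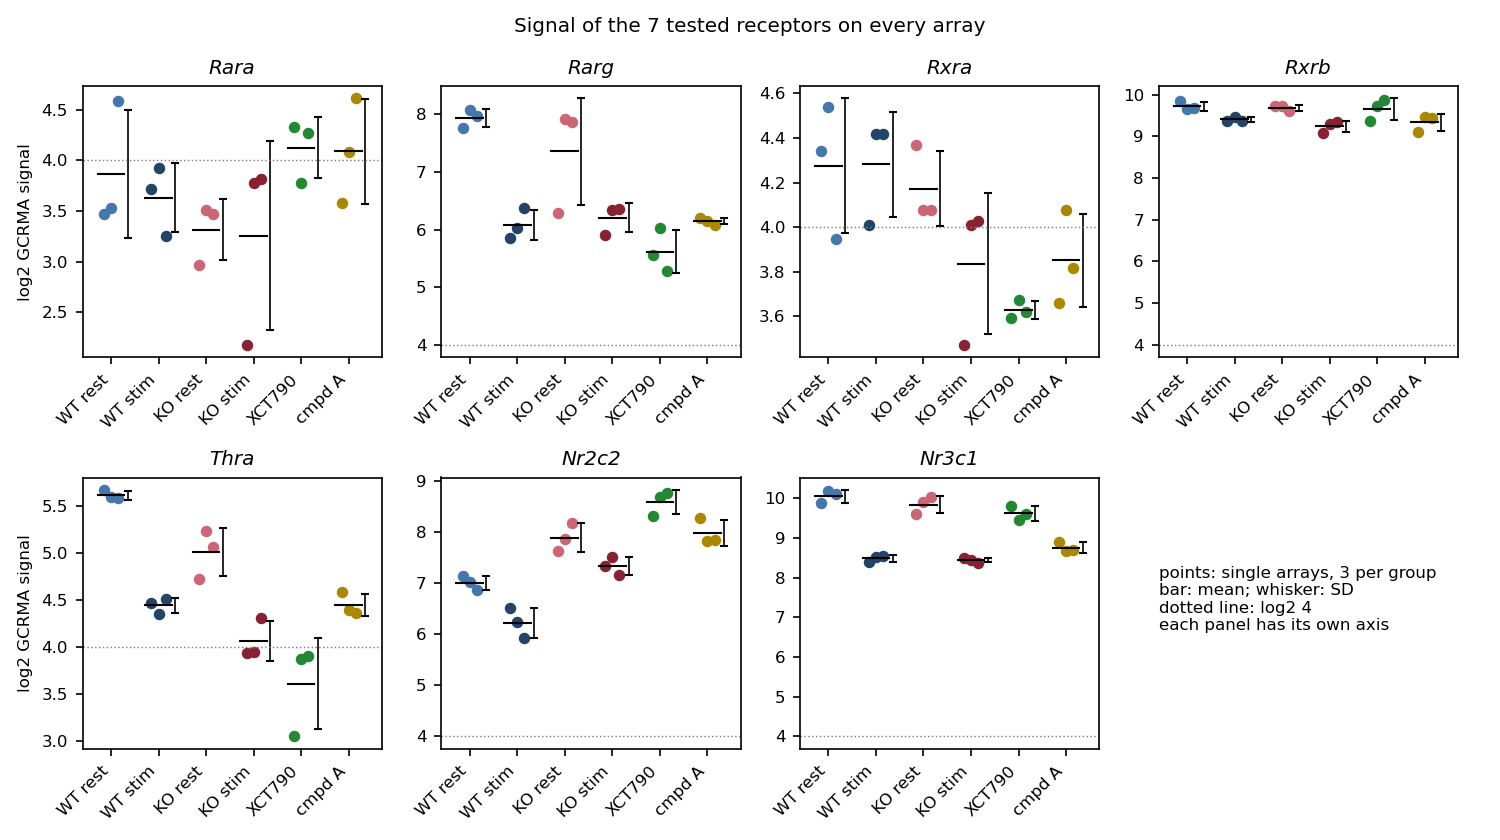
Log2 GCRMA signal (y axis, a scale of its own in each panel) of the 7 tested receptors in the 6 groups (x axis); points are arrays, bars means and whiskers SD (n = 3), and the dotted line is log2 4. Rarg, Thra and Nr3c1 are highest in resting cells, and Nr2c2 is lowest in untreated WT cells.

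Thra encodes thyroid hormone receptor alpha. On its main probe set it read 5.67, 5.59 and 5.58 in WT resting cells and 4.46, 4.35 and 4.51 in WT stimulated cells, without overlap, a difference of -1.18 ± 0.19 (2.26-fold, adjusted p = 5.91e-05). KO cells went from 4.73, 5.23 and 5.07 to 3.93, 3.94 and 4.30, also without overlap, a difference of -0.95 ± 0.19 (adjusted p = 4.31e-04). Second probe sets were fitted over 10691 single probe sets, of which 74.5%, 72.5%, 21.0% and 4.65% were called for stimulation in WT and KO cells and for genotype at rest and after stimulation. For XCT790 against stimulated WT, compound A against stimulated WT, XCT790 against compound A and XCT790 against resting WT cells these shares were 66.6%, 34.0%, 50.8% and 72.3%, and 69.4% for compound A against resting WT cells. The second probe set of Thra lay under log2 4 on all stimulated arrays of both genotypes, at least 2.64-fold below rest in WT cells (adjusted p = 1.24e-06) and at least 2.57-fold in KO cells (adjusted p = 3.70e-07). The lower signal after stimulation was thus found on both probe sets and in both genotypes, beside lower macrophage and B cell marker sums whose part in it was not tested.

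Against resting WT cells the inhibitor groups were lower on both probe sets of Thra. XCT790 cells were at least 2.64-fold lower on the second (adjusted p = 2.89e-06) and differed by -2.01 on the main one, and compound A cells differed by -1.17 on the main one and were 2.56-fold lower on the second with arrays under log2 4 set to that level (adjusted p = 4.21e-05). The difference between the genotypes at rest and that of XCT790 from stimulated WT cells were found on the main probe set alone. On it, resting KO cells lay below resting WT cells by -0.61 ± 0.19 (1.52-fold, adjusted p = 0.0407), a call lost when any of 11 arrays was left out. On the second, the same groups read 5.22, 5.50 and 5.37 against 5.31, 5.67 and 5.22, a difference of -0.04 (adjusted p = 0.929). XCT790 cells read 3.05, 3.87 and 3.91 on the main probe set, all under log2 4 and all below stimulated WT cells (-0.83 ± 0.19, at least 1.36-fold lower, adjusted p = 0.00150). Against KO stimulated cells, on the same side of the dap split, the difference was -0.45 and was not called (adjusted p = 0.0520). On the second probe set XCT790 cells read 3.08, 3.47 and 3.77 and stimulated WT cells 3.83, 3.08 and 2.98, all under log2 4 and overlapping (adjusted p = 0.613). Compound A cells read 4.58, 4.40 and 4.37 on the main probe set and differed from stimulated WT cells by 0.01 ± 0.19.

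Nr2c2 encodes TR4, an orphan receptor and a known repressor or activator depending on the promoter. Its main probe set read 7.15, 7.03 and 6.87 in WT resting cells, 6.52, 6.24 and 5.93 in WT stimulated cells, 7.64, 7.87 and 8.19 in KO resting cells and 7.35, 7.52 and 7.17 in KO stimulated cells. With XCT790 it read 8.33, 8.70 and 8.77, and with compound A 8.29, 7.83 and 7.85. All 12 KO and inhibitor arrays (7.17 to 8.77) lay above all 6 untreated WT arrays (5.93 to 7.15), the same division as that of the dap 5′ control. Ordered by group mean, the signal was lowest in WT stimulated cells (6.23 ± 0.29, SD, n = 3), then WT resting (7.02 ± 0.14), KO stimulated (7.35 ± 0.17), KO resting (7.90 ± 0.28), compound A (7.99 ± 0.26) and XCT790 (8.60 ± 0.24). KO resting and compound A cells overlapped, and the other neighbours in this order did not.

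KO cells exceeded WT cells in Nr2c2 by 0.88 ± 0.18 at rest (1.85-fold, adjusted p = 0.00577) and by 1.12 ± 0.18 after stimulation (2.17-fold, adjusted p = 0.00371), and with the compared groups fitted alone neither was called (adjusted p = 0.0543 and 0.0525). All 3 KO resting arrays also had higher erythroid and neutrophil marker sums than the WT resting arrays. After stimulation the neutrophil sum was 6.51 to 10.9 in KO and 5.53 to 6.00 in WT cells. The erythroid sums of these groups lay between 5.49 and 5.56. The sum of NK and CD8 T cell markers (7 genes, Cd8a never at log2 4) was 10.6 to 10.9 in KO and 10.1 to 10.4 in WT stimulated cells. It was 8.94 to 9.03 with XCT790 and 9.55 to 9.66 with compound A. The part of these cells in the Nr2c2 values was not tested. XCT790 cells exceeded stimulated WT cells by 2.37 ± 0.18 (5.17-fold, adjusted p = 7.20e-08), and compound A cells exceeded them by 1.76 ± 0.18 (3.40-fold, adjusted p = 1.46e-05). Each of these crosses the split of the dap control, so the group and the split cannot be told apart. On one side of the split, XCT790 cells exceeded KO stimulated cells by 1.26 ± 0.18 (adjusted p = 3.02e-05), compound A cells exceeded them by 0.65 ± 0.18 (adjusted p = 0.0183), and XCT790 cells exceeded compound A cells by 0.61 ± 0.18 (1.52-fold, adjusted p = 0.0117). The first pair of values is from comparisons added after the data were seen, in which 65.2% and 26.1% of all genes were called. Stimulated minus resting cells, the main probe set differed by -0.79 ± 0.18 in WT cells (adjusted p = 0.00121) and by -0.56 ± 0.18 in KO cells (adjusted p = 0.0130), the KO call being lost without KO resting array 3 or KO stimulated array 3. Both calls were lost on the mean of all probe sets of Nr2c2 (limma, -0.14, adjusted p = 0.334 in WT and -0.09, adjusted p = 0.536 in KO cells).

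A second probe set of Nr2c2 read lower throughout, with 3.19, 3.24 and 2.30 in WT resting and 3.54, 3.61 and 2.25 in WT stimulated cells. KO cells read 3.48, 4.09 and 4.65 at rest and 4.19, 4.33 and 4.25 after stimulation, XCT790 cells 5.85, 6.09 and 5.96, and compound A cells 5.16, 5.13 and 4.79. The untreated WT arrays all lay under log2 4 on it, so folds over them are lower bounds. The inhibitor groups lay above all others, at least 3.91-fold over stimulated WT cells with XCT790 (adjusted p = 5.27e-06) and at least 2.04-fold with compound A (adjusted p = 8.69e-04). KO cells exceeded WT cells at least 1.05-fold at rest (adjusted p = 0.0301) and at least 1.20-fold after stimulation, the second value not called (adjusted p = 0.0894). Stimulation gave no call on this probe set (adjusted p = 0.578 in WT and 0.645 in KO cells), and in WT cells both groups were under log2 4, so it gave no direction there. The gene's other 2 probe sets stayed under log2 4 on all 18 arrays.

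Nr3c1 encodes the glucocorticoid receptor. It read 9.87, 10.17 and 10.10 in WT resting cells and 8.39, 8.52 and 8.55 in WT stimulated cells, far from overlapping, a difference of -1.56 ± 0.12 (2.95-fold, adjusted p = 2.34e-08). KO cells went from 9.60, 9.90 and 10.02 to 8.49, 8.44 and 8.38, a difference of -1.40 ± 0.12 (2.64-fold, adjusted p = 8.94e-08). The genotypes differed by -0.21 ± 0.12 at rest and -0.05 ± 0.12 after stimulation, neither of them called (95% intervals -0.47 to 0.05 and -0.31 to 0.21). A second probe set gave a difference of -1.71 with stimulation in both genotypes. The macrophage and B cell marker sums were also lower in stimulated cells, and their part in the Nr3c1 values was not tested.

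XCT790 cells read 9.80, 9.45 and 9.60 for Nr3c1, above every stimulated array without inhibitor, and lay 1.12 ± 0.12 over stimulated WT cells (2.18-fold, adjusted p = 1.43e-06). They still lay 0.43 ± 0.12 under resting WT cells (adjusted p = 0.00459). Compound A cells read 8.90, 8.66 and 8.69, and their difference of 0.26 ± 0.12 from stimulated WT cells was not called on this probe set (95% interval 0.01 to 0.52, adjusted p = 0.108). On the second probe set it was called at 0.36 ± 0.11 (adjusted p = 0.0197). XCT790 cells exceeded compound A cells by 0.86 ± 0.12 (1.82-fold, adjusted p = 3.71e-05) and KO stimulated cells by 1.17 ± 0.12 (adjusted p = 1.05e-06), both on one side of the dap split. The third probe set lay at 2.22 to 2.95 on the 15 arrays without XCT790 and at 4.70, 4.27 and 4.12 with it, at least 1.29-fold over stimulated WT cells (adjusted p = 1.58e-07). It was at least 1.29-fold higher than in resting WT cells as well (adjusted p = 3.36e-08), where the other 2 probe sets were lower with XCT790, but its untreated WT values are not above log2 4.

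**Figure D4:**
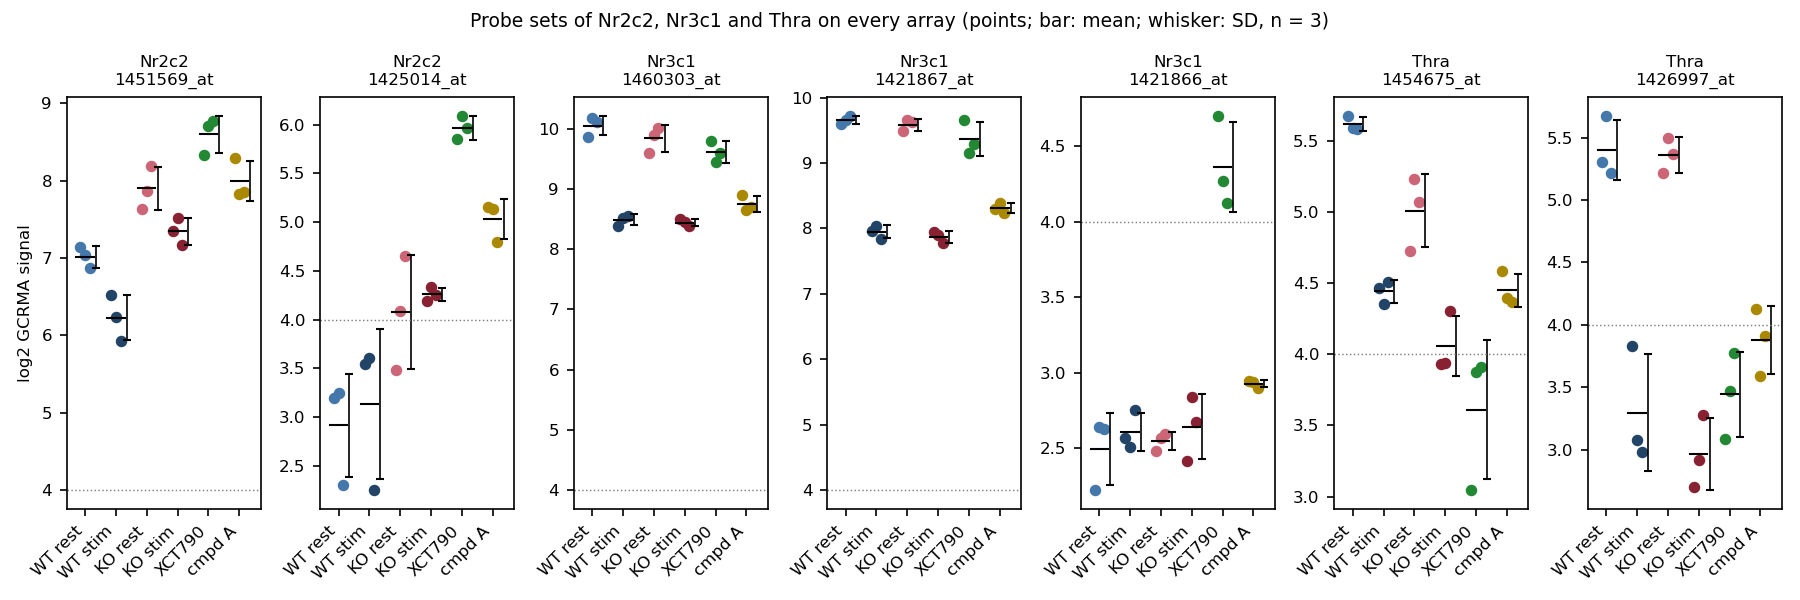
Log2 GCRMA signal (y axis, a scale of its own in each panel) of 7 probe sets of Nr2c2, Nr3c1 and Thra in the 6 groups (x axis); points are arrays, bars means and whiskers SD (n = 3), and the dotted line is log2 4. The 2 Nr2c2 probe sets place both inhibitor groups highest by mean, and the third Nr3c1 probe set reaches log2 4 with XCT790 alone.

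The partners and targets of the receptors were read from lists of known genes. Of 11 tested chaperones and cochaperones of the glucocorticoid receptor, 8 rose and 2 fell with stimulation of WT cells, where Nr3c1 fell, with a median of 0.61 against -0.01 over all genes and with 75.4% of all genes called in either direction and 38.4% called lower. The 4 with the smallest adjusted p were St13 (1.97, adjusted p = 3.11e-10), Stip1 (1.90), Hspa4 (1.45) and the FK506-binding cochaperone Fkbp4 (1.81). XCT790 lowered 6 of the 11 and raised 1 against stimulated WT cells, and compound A lowered 1, where 36.9% and 18.7% of all genes were called lower. Of 14 tested glucocorticoid target genes, 10 fell and 3 rose with stimulation, with a median of -3.85, or -3.41 with values under log2 4 set to that level. Among them Sgk1, a kinase, fell by 4.82, the chemokine receptor Cxcr4 fell by 4.45, Tsc22d3 (GILZ), a mediator of glucocorticoid action, fell by 4.30 and Ddit4, an mTOR inhibitor, fell by 3.73. With XCT790 10 of the 14 rose and 1 fell, with a median of 1.61 against -0.06 over all genes, where 29.1% of genes were called higher and 66.0% in either direction. With compound A 3 rose and none fell, with a median of -0.03 over the list and over all genes, where 14.5% were called higher and 33.2% in either direction. Cxcr4 rose by 4.42 and 1.26 in these 2 comparisons and Dusp1, a MAP kinase phosphatase, by 1.90 and 0.58. Many of these genes respond to other signals too, and no ligand was measured. The macrophage and B cell marker sums also fell with stimulation, and the part of other cells in these values was not tested.

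For the retinoid receptors, Crabp2, the carrier that hands retinoic acid to RARs, was under log2 4 in WT resting cells and at 9.99 after stimulation, at least 63.4-fold higher (adjusted p = 6.54e-14). With XCT790 it was again under log2 4, at least 63.4-fold below stimulated WT cells (adjusted p = 2.84e-14), and with compound A it fell by 4.32 to 5.66. Against the 75.4% of all genes called with stimulation, all 5 tested retinoic acid targets were called. Of them 2 rose, Crabp2 and Rarres2, and 3 fell with stimulation, among them the homing receptors Ccr9 (at least 19.2-fold) and Itga4 (at least 4.32-fold). Against stimulated WT cells each inhibitor gave 1 lower, 0 higher and 4 not called among these 5 targets. Over all genes 66.0% were called with XCT790 and 33.2% with compound A. Of 8 tested genes of ligand supply 4 rose and 3 fell, among them Hsd11b1, the enzyme that regenerates active glucocorticoid, which was 170-fold lower with arrays under log2 4 set to that level.

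The measured liver X receptor Nr1h3 and the PPARs stayed under log2 4, and known target genes of both families varied. The other liver X receptor, Nr1h2, had no probe set that named it alone, so its level is not known here. Of 11 tested liver X receptor targets 6 fell and 2 rose with stimulation, 8 of 11 against 75.4% of all genes, with a median of -3.04. They included the cholesterol exporters Abca1 (53.4-fold lower with arrays under log2 4 set to that level) and Abcg1 (-3.04), the LDL receptor ligase Mylip (-3.62) and the phosphodiesterase Smpdl3a (-5.33). Macrophages also carry such genes, and the macrophage marker sum fell in the same arrays; its part was not tested. With XCT790 6 of the 11 rose and 2 fell, against 29.1% of all genes called higher and 36.9% lower; Abca1 was 14.8-fold higher on the same terms and Mylip rose by 1.74. With compound A 1 rose and 5 fell, against 14.5% higher and 18.7% lower, and Abca1, 1 of the 5, had means under log2 4 in both groups (2.35 and 3.46). The macrophage sum was 6.58 to 6.63 in stimulated WT cells, 6.92 to 7.34 with XCT790 and 6.60 to 6.68 with compound A. Of 11 tested PPAR targets 7 fell and 1 rose with stimulation, again 8 of 11 against 75.4% of all genes. Among them were Cpt1a, the entry enzyme of mitochondrial fatty acid oxidation, at -3.90 and Acaa2 at -1.74. With XCT790 1 of these 11 rose and 5 fell (median -0.44), against 29.1% of all genes called higher and 36.9% lower. With compound A 3 rose and 2 fell (median -0.04), against 14.5% higher and 18.7% lower. Cpt1a rose with both inhibitors (1.97 and 2.43), while Acaa2 fell by 1.73 with XCT790.

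Of 13 tested coactivators of nuclear receptors 6 rose and 6 fell with stimulation of WT cells, 12 of 13 against 75.4% of all genes. The acetyltransferase Kat2b fell by 1.99, and the methyltransferases Prmt1 and Carm1 rose by 1.59 and 1.54. Of 8 tested corepressors 4 fell and 1 rose, 5 of 8 against 75.4% of all genes, Nrip1 falling by 0.86 and the deacetylase Hdac3 rising by 0.57. XCT790 gave 5 higher and 6 lower coactivators and 3 higher and 1 lower corepressors against stimulated WT cells, where 66.0% of all genes were called. Compound A gave 1 higher and 4 lower coactivators and 2 higher corepressors, where 33.2% were called. Of the 2 tested targets of vitamin D or thyroid hormone, Bcl3 rose by 1.22 with stimulation.

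**Figure D5:**
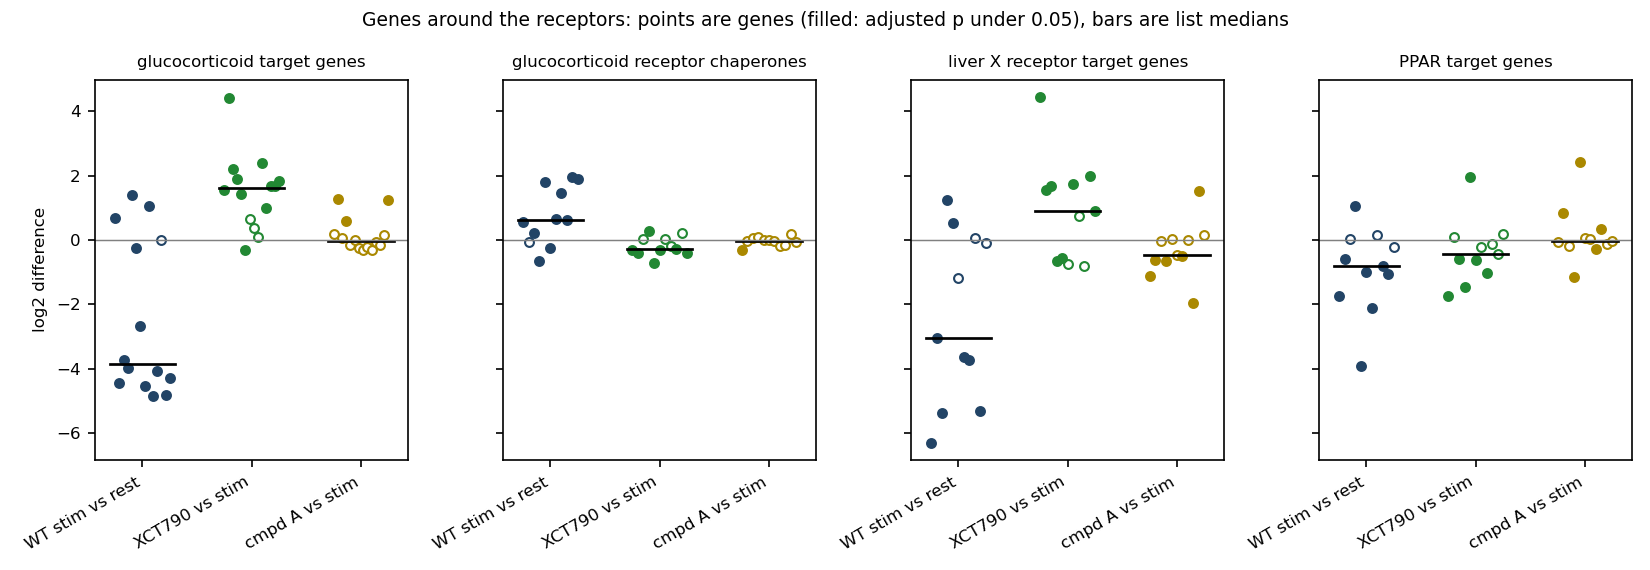
Log2 difference (y axis) of the tested genes of 4 lists, 1 panel each, in 3 comparisons (x axis); points are genes, filled where the adjusted p is under 0.05, and bars are list medians. The median of the glucocorticoid targets is -3.85 with stimulation, 1.61 with XCT790 and -0.03 with compound A.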

How the data were processed

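RNA of 18 CD4+ T cell samples was measured on 1 array each. Each deposited value is a log2 signal of 1 probe set, which the authors obtained with GCRMA, per the submitters' processing notes; all 18 arrays hold the same sorted values (median 3.55), so changes are relative to the other probe sets. Of 22690 probe sets, 20380 name 1 gene, and each of the 12393 genes was read from its probe set of highest mean. The 6873 genes at log2 4 or more on at least 3 arrays entered limma (version 3.58.1, R 4.3.3) with 1 mean per group, 12 residual and 2.22 prior degrees of freedom, and Benjamini-Hochberg adjustment over all of them per comparison. Folds set arrays of the lower group under log2 4 to log2 4, and are "at least" where all 3 are under it; log2 differences do not. Second probe sets were fitted over 10691 single probe sets. The script was tested on simulated data. Figures used Python 3.11.15 and matplotlib 3.10.9.

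Groups come from the labels. The receptors and the gene lists were chosen with earlier results of these data known. Named genes were all receptors, up to 4 genes of smallest adjusted p of each list in the comparison described, Esrra and the dap control. Further lists for erythroid cells, neutrophils, dendritic cells and NK or CD8 T cells were summed as marker checks. Equally numbered arrays deviated together (every correlation above 0.1) in KO stimulated against KO resting, KO against WT at rest and after stimulation, and both inhibitors against stimulated WT cells; no label ties equal numbers to 1 animal or day. The settings varied were the filter (none, or log2 6), array medians set equal, averaging of a gene's probe sets, an array-number block, the compared groups alone, a trended robust prior, each array left out and, added after seeing the data, arrays numbered 2 and 3 alone, KO stimulated cells as reference and the second probe set. The series design text calls the replicates independent biological replicates.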

Additional observations from a re-analysis of the deposited data

Results flagged for a closer look

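The responses of 4 receptors to the inhibitors differed from each other in the direct comparison of XCT790 with compound A at 20 µM, which is the test of the difference between the effects over stimulated WT cells. XCT790 minus compound A was 0.86 for Nr3c1 (limma, adjusted p = 3.71e-05, higher on 3 of 3 arrays), 0.61 for Nr2c2 (adjusted p = 0.0117, 3 of 3 arrays), -0.84 for Thra (adjusted p = 0.00204, lower on 3 of 3 arrays) and 0.32 for Rxrb (adjusted p = 0.0444, groups overlapping). Without XCT790 array 3 the Nr2c2 difference was 0.52 (adjusted p = 0.0506) and the Rxrb difference 0.21 (adjusted p = 0.196). The Rxrb call was also lost with no filter (adjusted p = 0.083) and with the compared groups alone (adjusted p = 0.168). For Thra the second probe set gave -0.43 (adjusted p = 0.140).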

How the results depend on the processing

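Over the receptors' log2 differences, 1213 of 1260 values with an array left out, and 529 of 564 under the other settings, stayed on their side of the threshold. Called values among them also kept their direction, while the direction of values not called was not counted. Leaving out an array outside the compared groups cannot change a difference, only its SE and adjusted p. The receptors reaching log2 4, 7 in all, were 4 at log2 6. KO against WT at rest had 2 calls, and 1 with no filter, a floor of log2 6, equal array medians, averaged probe sets or a trended robust prior, and 0 with the compared groups alone, where the adjusted p of Nr2c2 was 0.0543; leaving out 1 array gave 1 to 2. KO against WT after stimulation had 1 call and 0 with the compared groups alone (Nr2c2, adjusted p = 0.0525). XCT790 against stimulated WT cells had 4 calls, 2 at a floor of log2 6 (4 receptors tested), 2 with the mean of all probe sets, 5 with equal array medians (Rxrb, adjusted p = 0.0431), 6 on arrays numbered 2 and 3 alone, 3 with KO stimulated cells as reference, and 4 to 5 with 1 array left out (5 without XCT790 array 1 or KO resting array 1). Compound A against stimulated WT cells had 1 call, 2 with the mean of all probe sets, 2 on arrays numbered 2 and 3 alone, and 1 to 2 with 1 array left out. XCT790 against compound A had 4 calls and 2 to 5 with 1 array left out (2 without XCT790 array 3, 5 without KO resting array 1). XCT790 against resting WT cells had 5 calls and 3 at a floor of log2 6. Thra was reversed on its second probe set with XCT790 against stimulated WT cells (0.15). Nr2c2 was reversed on its second probe set with stimulation of WT and KO cells (0.22 and 0.18). On these probe sets both WT groups of Nr2c2 and both groups of Thra were under log2 4, and the cause was not tested. Nr3c1 with XCT790 against resting WT cells was reversed on the mean of its 3 probe sets (0.38). That mean averages -0.43 and -0.29 with 1.87 on the third probe set, where all resting WT arrays were under log2 4. The array number as a replicate block changed no call: with the block KO against WT at rest had 2 calls, and Nr2c2 differed there by 0.88 (adjusted p = 0.00795). Medians of the tested genes ran from 8.70 to 8.80 over the arrays. Signals under log2 4 limit Rara, Rxra and Thra.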
